A study of Mus musculus with 6 samples.

Results

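Mouse dermal fibroblasts from the ear were kept for 3 days on a stiff or a soft polyacrylamide hydrogel, and the comparison described here sets 2 libraries from the 20 kPa gel against 2 libraries from the 1 kPa gel. These 4 libraries are all the gel libraries among the 6 of the series, chosen by their labelled stiffness. The other 2 come from the same cells on glass. They enter only the filter, the scaling and the estimate of spread. Each sample held 500000 cells, no treatment other than the substrate is labelled, and poly(A) RNA was sequenced. The labels give no strain, age or sex of the mice and no genotype. Nothing in them tells if replicate libraries are from different mice or dishes. The p-values so measure the spread between replicate libraries, glass included, which may be technical. Both gels are of the same material, so the labelled difference between the groups is stiffness alone. The stated purpose of the series was to learn how stiffness acts on chromatin state before reprogramming to neurons.

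Fibroblasts feel the stiffness of what they sit on through integrins, which couple the matrix to contractile actin fibres. Tension in those fibres is known to reach the nucleus through the transcriptional co-activators MRTF and YAP/TAZ and through the nuclear lamina. The same cells make and degrade the dermal matrix, and as sentinels of the skin they can release chemokines, cytokines and proteases through the transcription factors NF-kB and AP-1.

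The gel libraries held between 17894092 and 21055203 counted reads. With that depth, a gene with 3 counts in a library lies between 0.145 and 0.168 CPM (reads as a share of the library's total, on the usual CPM scale, with TMM factors between libraries). Mitochondrial genes took 1.25% to 1.49% of the counts. An identifier without a symbol in the annotation used here took 2.9% of the counts of the first 1 kPa library, against 1.28% in the second and 0.947% and 1.31% on 20 kPa. The first principal component of the 4 libraries held 62.9% of their variance and separated the gels. Fibroblast genes were strongly expressed on both gels: the 12 fibroblast markers summed to between 51230 and 52390 CPM on 1 kPa and between 53870 and 56740 CPM on 20 kPa. Markers of leukocytes were low, but not all were close to the floor. Lyz2 had a mean of 6.32 CPM on 1 kPa and 5.34 CPM on 20 kPa, and Cd68 3.7 and 4.25 CPM. The 7 of 11 markers that could be tested summed to between 12.79 and 15.98 CPM over the gels. Ptprc, which encodes the pan-leukocyte protein CD45, had between 2 and 5 counts in any library of the series. In bulk samples such as these, fewer cells of a type and less RNA per cell cannot be told apart.

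Of 16093 genes tested, 3035 (18.9%) differed between the gels at an adjusted p under 0.05 in edgeR's quasi-likelihood test with Benjamini-Hochberg adjustment over all of them, and "called" refers to this throughout. On 20 kPa 1438 genes (8.94%) were higher and 1597 (9.92%) were lower. Most changes were small: the median size among the called genes was 0.42 on the log2 scale, and 218 genes rose and 281 fell at least 2-fold, or 1.35% and 1.75% of the tested genes. Scaling by total counts in place of TMM moved the split from 47.4% to 60.9% higher, with 1949 genes higher and 1253 lower. For 60.1% of the tested genes, called or not, the 2 libraries of one gel both lay above those of the other. Leaving out any one gel library brought the number of calls down to between 1680 and 1910. Counts of called genes in the lists described here are less firm where they are small: of 72 counts between 1 and 5, over both directions of all 64 lists, 49 moved by over 1.5 times when a single library of any group was left out, against 13 of 33 higher counts. Among genes over 100 CPM 33.4% were called, against 4.79% of those under 1 CPM.

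**Figure D1:**
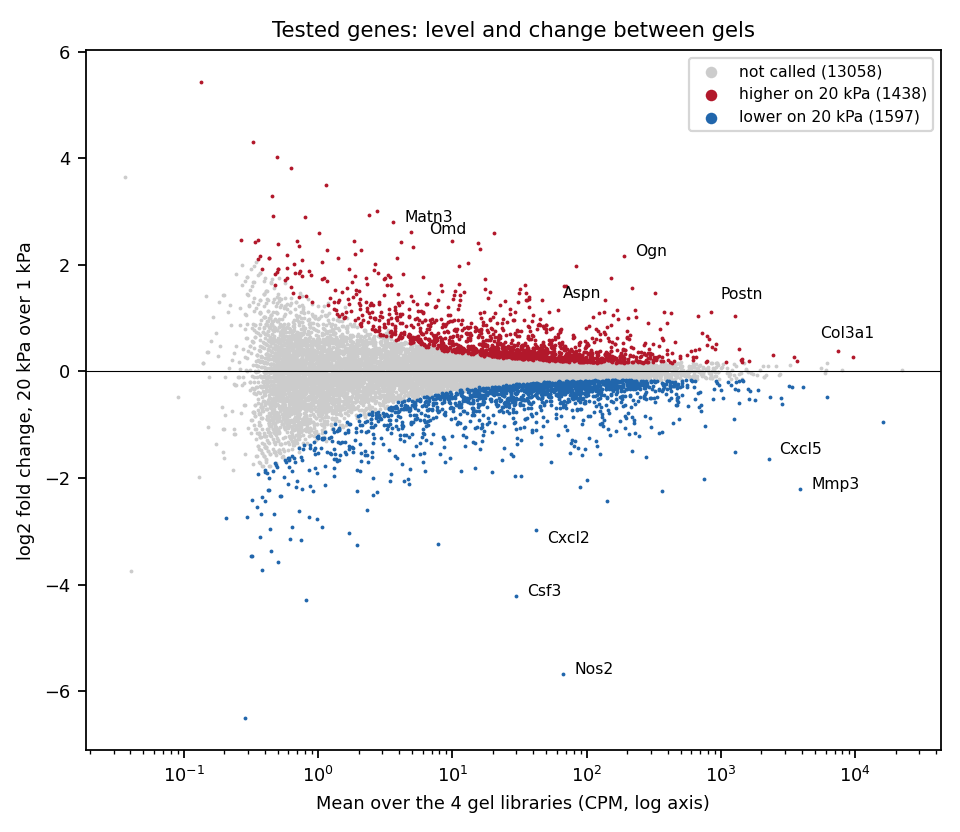
Each point is one of 16093 tested genes, placed by its mean over the 4 gel libraries (CPM, log axis) and its log2 fold change (20 kPa over 1 kPa), with 1438 called higher in red, 1597 called lower in blue and the rest in grey. Nos2, Csf3, Cxcl2 and Mmp3 lie far below 0, and Matn3, Omd, Ogn and Aspn lie above it.

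**Figure D2:**
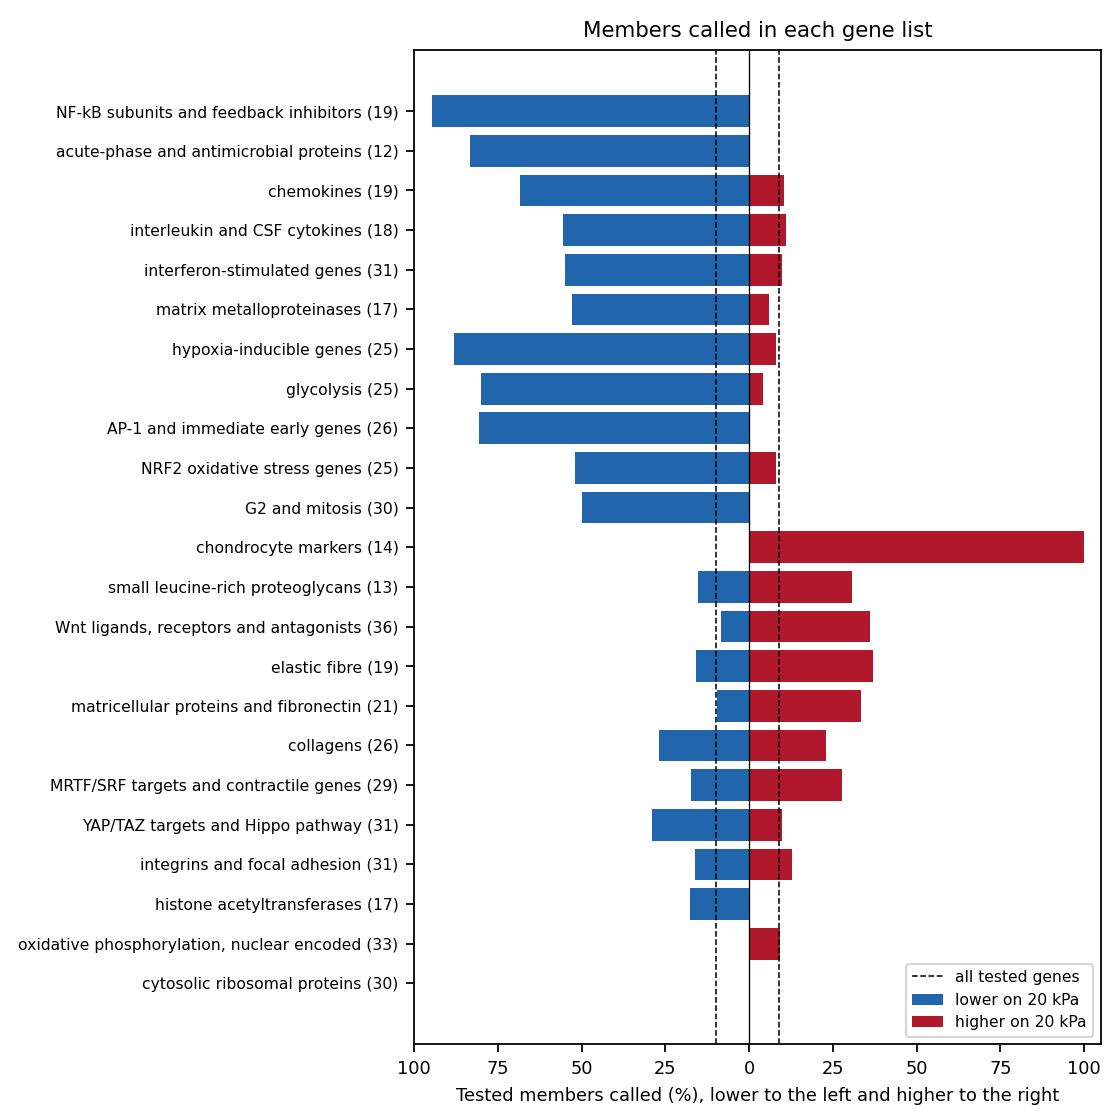
Bars give the percent of tested members of each gene list called lower (left, blue) and higher (right, red) on 20 kPa, with the number tested in parentheses; dashed lines mark 9.92% lower and 8.94% higher, the shares among all tested genes. NF-kB, acute-phase, hypoxia, glycolysis and AP-1 lists reach far to the left and the chondrocyte markers (14 of 14) to the right, while cytosolic ribosomal proteins have 0 called.

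Among genes with a mean of 5 CPM or more on one of the gels, the 2 largest falls on 20 kPa were those of the inflammatory genes Nos2 and Csf3. Nos2, which encodes the inducible nitric oxide synthase, stood at 133 and 129.5 CPM on 1 kPa and 2.83 and 2.32 CPM on 20 kPa. That is a fall of 5.67 on the log2 scale (SE 0.11, adjusted p = 8.8e-26). Csf3, the granulocyte colony-stimulating factor, was at 58.8 and 53.8 CPM on 1 kPa and 2.97 and 3.05 CPM on 20 kPa (-4.22, SE 0.12, adjusted p = 2.9e-21). Each pair of libraries lay within a narrow range. The gels did not overlap for either gene, but the rule that named the largest falls required this. Of the 7 tested leukocyte markers edgeR called 0, at adjusted p between 0.2 and 0.71 for the 5 with the smallest p, and their median log2 fold change was -0.25. The list had 0 at an unadjusted p under 0.05, 0 called by DESeq2 and 1 by limma-voom. Errors were wide at low counts, as for Laptm5 (-1.43, SE 0.75), so the lack of calls cannot decide whether these markers changed. The part of leukocytes in the falls of Nos2 and Csf3 was not tested.

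NF-kB is kept in the cytoplasm by inhibitor proteins, and several of its target genes encode those inhibitors and so limit its action. All 19 genes of the list of NF-kB subunits and feedback inhibitors were tested, and 18 were called lower on 20 kPa and 0 higher, with a median log2 fold change of -0.64 against 0.004 over all tested genes. The remaining gene was Rel, named after its value was seen (-0.26). Nfkbia, the inhibitor IkB-alpha, was at 121 and 129 CPM on 1 kPa and 47.8 and 44.7 CPM on 20 kPa, log2 fold change -1.43, SE 0.068, adjusted p = 3.4e-16. Tnfaip3, which encodes the ubiquitin-editing enzyme A20, was at 42.1 and 39 CPM on 1 kPa and 13.2 and 14.5 CPM on 20 kPa (-1.55, SE 0.096, adjusted p = 1.8e-13). Nfkbiz, a nuclear IkB protein that co-activates part of the NF-kB response, fell by 1.40 on the log2 scale (SE 0.061, adjusted p = 4.2e-17). Zc3h12a, the RNase Regnase-1 that degrades inflammatory transcripts, was at 116 and 108 CPM on 1 kPa and 37.7 and 39.9 CPM on 20 kPa. Birc3, an inhibitor of apoptosis, had the smallest change of these 5 (-0.93, SE 0.076, adjusted p = 9.7e-11). These 5 were named for the smallest p in the list, and for all 5 both 20 kPa libraries lay below both 1 kPa libraries. Of all tested genes 60.1% had libraries that did not overlap between gels.

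Chemokines, secreted proteins that draw leukocytes, mostly fell too. Of 26 in the list 19 could be tested. On 20 kPa 13 were lower and 2 higher, with a median of -0.82. Cxcl1 was at 595 and 599 CPM on 1 kPa and 125 and 128 CPM on 20 kPa (-2.24, SE 0.058, adjusted p = 2.7e-22). Cxcl2 was at 74.9 and 73.9 CPM on 1 kPa and 8.53 and 10.4 CPM on 20 kPa (-2.97, SE 0.097, adjusted p = 4.8e-20). Cxcl5 was the most changed chemokine in absolute terms, at 3438 and 3395 CPM on 1 kPa and 1091 and 1104 CPM on 20 kPa (-1.64, SE 0.061, adjusted p = 1.6e-18). These 3 and Cxcl3, at 164 and 161 CPM on 1 kPa and 39.3 and 39.8 CPM on 20 kPa, draw neutrophils through the receptor CXCR2. Their libraries did not overlap between gels, as was the case for 60.1% of all tested genes. Ccl2, which draws monocytes, was at 442 and 394 CPM on 1 kPa and 137 and 136 CPM on 20 kPa (-1.61, SE 0.067, adjusted p = 1.6e-17). The 2 that rose were Ccl9 (0.78) and Cxcl14 (0.52), both named after their values were seen.

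Cxcl5, Cxcl3, Cxcl1 and Cxcl2 lie in the same interval of chromosome 5, chr5:90759360-90905938 in GRCm38 (GENCODE M21). Of the 6 protein-coding genes tested in that interval 4 were lower and 2 were not called. These 2 were Ppbp, log2 fold change -0.01, and Cxcl15, 1.22, at 0.195 and 0.392 CPM on 1 kPa and 0.78 and 0.581 CPM on 20 kPa. The interval and these 2 genes were chosen after their values were seen. Next to the cluster Mthfd2l, which is not a chemokine gene, was at 20.3 and 16.6 CPM on 1 kPa and 17.8 and 19.2 CPM on 20 kPa (-0.00, not called), also chosen after its values were seen. Of the other tested genes beside the cluster, Epgn was called lower (-1.32, SE 0.46, adjusted p = 0.046). Its means were low, 1.32 CPM on 1 kPa and 0.534 CPM on 20 kPa. Rassf6 (-0.68, SE 0.25) and Alb (-0.65, SE 0.56) were not called.

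Short stretches before the start sites of the neutrophil chemokines and of 2 of the inhibitors are shown because the NF-kB consensus, searched on both strands in the RefSeq promoters (GRCm38.p6, 250 bases before to 50 after each start), was found there. Each runs 5′ to 3′ on the strand of its gene, ends at or before the start site, and has the matched bases in capitals.
Cxcl1, chr5:90891149-90891209 (plus strand): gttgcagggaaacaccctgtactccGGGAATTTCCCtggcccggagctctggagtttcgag
Cxcl2, chr5:90903777-90903837 (plus strand): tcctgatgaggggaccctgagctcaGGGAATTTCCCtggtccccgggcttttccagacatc
Cxcl3, chr5:90786003-90786063 (plus strand): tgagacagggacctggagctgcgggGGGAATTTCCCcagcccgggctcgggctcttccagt
Nfkbia, chr12:55492648-55492701 (minus strand): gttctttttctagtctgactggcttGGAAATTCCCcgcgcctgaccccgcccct
Tnfaip3, chr10:19015501-19015560 (minus strand): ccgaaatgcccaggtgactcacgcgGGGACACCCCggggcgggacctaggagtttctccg
Tnfaip3, chr10:19015411-19015447 (minus strand): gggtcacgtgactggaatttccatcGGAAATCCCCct
In Cxcl1, Cxcl2 and Cxcl3 the match reads on both strands, and it begins 71, 97 and 73 bases before the start. Among promoters of the NF-kB list 11 of 19 (57.9%) held a match, and among those of chemokines 6 of 16 (37.5%), against 5.31% of the 14286 promoters of all tested genes (a gene may have more than one). The share was 12.9% in genes at least 2-fold lower and 11% in genes at least 2-fold higher on 20 kPa, so the matches were about as frequent in both directions. A match is only a description of the letters in this window.

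Cytokines of the interleukin, IL-6 and colony-stimulating families followed, with 10 of 18 tested members lower and 2 higher. Lif, an IL-6 family cytokine, was at 147 and 144 CPM on 1 kPa and 31.9 and 32.4 CPM on 20 kPa (-2.18, SE 0.071, adjusted p = 4.9e-20). Il6 itself was at 140.3 and 133 CPM on 1 kPa and 43.9 and 48.4 CPM on 20 kPa (-1.57, SE 0.075, adjusted p = 4.4e-16). Il11, of the same family, had a smaller difference, -0.80, SE 0.083, adjusted p = 1.2e-08. Tnfsf11, which encodes RANKL, the ligand that drives osteoclast formation, was at 224 and 210.2 CPM on 1 kPa and 155 and 150.0 CPM on 20 kPa. The 2 that rose were Il18 (0.82) and Il33 (0.38), named after their values were seen, and neither was called by DESeq2 or without either 1 kPa library or the second 20 kPa library (Il33 also not without the first 20 kPa library).

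Acute-phase and antimicrobial proteins had the lowest median of the inflammatory lists, -1.45, with 10 of 12 tested members lower and 0 higher. Lcn2, lipocalin 2, which withholds iron from bacteria, was at 1173 and 1204 CPM on 1 kPa and 294 and 292 CPM on 20 kPa (-2.02, SE 0.057, adjusted p = 2.5e-21). Saa3, a serum amyloid A, was at 1952 and 1778 CPM on 1 kPa and 635 and 681 CPM on 20 kPa (-1.50, SE 0.062, adjusted p = 1.5e-17). Steap4, a metalloreductase of inflamed tissue, was at 325 and 316 CPM on 1 kPa and 116 and 110.4 CPM on 20 kPa. Hp and Lbp, haptoglobin and the lipopolysaccharide-binding protein, fell by about as much as each other, at log2 fold changes of -1.13 and -1.05. Saa3, Saa1 and Saa2 form the interval chr7:46711998-46754313, where all 3 tested genes were lower, Saa2 not without the first 1 kPa library. Saa1 and Saa2 are near-identical copies whose reads the counting could split, so their own values are uncertain.

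**Figure D3:**
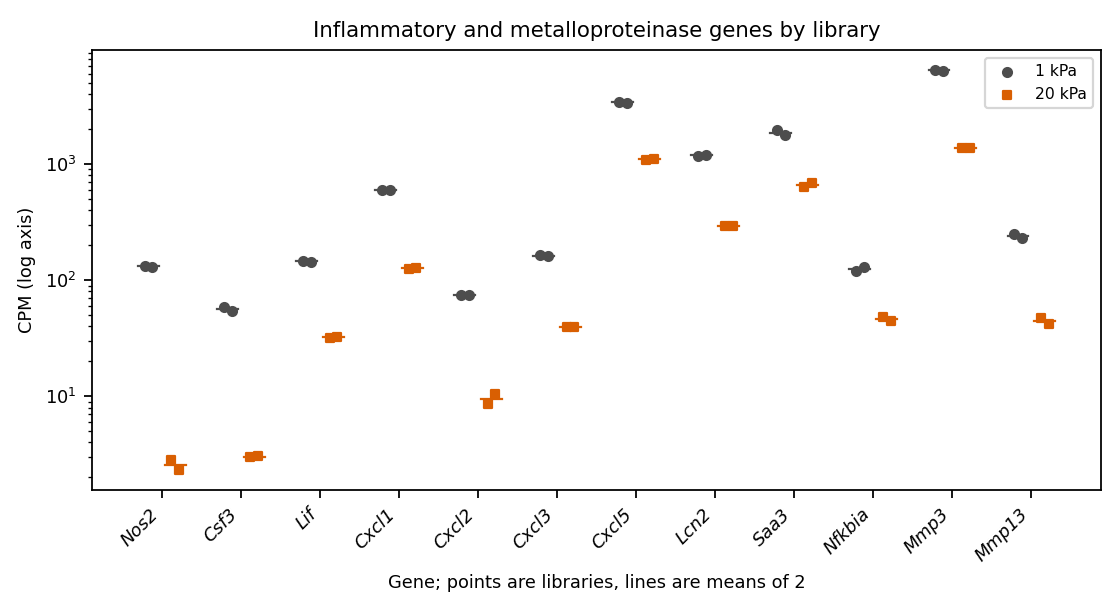
Points give the CPM of each of the 4 gel libraries on a log axis and short lines the means of the 2 libraries of a gel, for 12 inflammatory and metalloproteinase genes. In all 12 both 20 kPa libraries lie below both 1 kPa libraries, and the gap is widest for Nos2, from 129.5 to 2.83 CPM. All 12 were called, and 60.1% of all tested genes have libraries that do not overlap between gels.

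Around Nos2, the enzymes of nitric oxide and arginine metabolism were 5 lower and 1 higher of 10 tested. Slc7a2, an arginine transporter, was at 184 and 191 CPM on 1 kPa and 70.2 and 58.6 CPM on 20 kPa (-1.54, SE 0.07, adjusted p = 1.3e-16). Gch1, which makes the cofactor of nitric oxide synthases, was at 46.3 and 46.3 CPM on 1 kPa and 20.8 and 24 CPM on 20 kPa (-1.05, SE 0.087, adjusted p = 1.3e-10). Ass1, which regenerates arginine, differed less (-0.39, SE 0.055, adjusted p = 3.4e-06). Arg2, an arginase, was at 5.36 and 5.77 CPM on 1 kPa and 1.27 and 1.4 CPM on 20 kPa, but 28.1% of its exons overlap another gene, and the counting is not stated to use strand. Prostaglandin synthesis had 7 of 15 tested genes lower and 1 higher. Ptgs2, the inducible cyclooxygenase, was at 589.9 and 576 CPM on 1 kPa and 297 and 296 CPM on 20 kPa (-0.97, SE 0.058, adjusted p = 7.2e-14), and Ptges, which acts after it, was at 194 and 196 CPM on 1 kPa and 96.5 and 88.7 CPM on 20 kPa (-1.07, SE 0.061, adjusted p = 2.2e-14). Complement had 4 of 11 lower and 0 higher (36.4% called, against 18.9% of all genes), with a median of -0.19. C3, the protein on which its pathways converge, led the list, at 3422 and 3441 CPM on 1 kPa and 2310.0 and 2183 CPM on 20 kPa (-0.61, SE 0.064, adjusted p = 1.6e-08). The complement count was 2 without the second 20 kPa library.

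More interferon-stimulated genes were lower than higher on 20 kPa. Of 31 tested, 17 were lower and 3 higher (64.5% called, against 18.9% of all genes). The log2 fold change was below 0 for 25 of them, with a median of -0.35. Ifitm3, which blocks virus entry, was at 563 and 563 CPM on 1 kPa and 362 and 369 CPM on 20 kPa (-0.62, SE 0.056, adjusted p = 7.1e-10). Ifit3, an antiviral protein that binds RNA, went the other way, at 12.6 and 14.1 CPM on 1 kPa and 27.2 and 26.5 CPM on 20 kPa (1.01, SE 0.12, adjusted p = 1.6e-07), and the other two that rose, Ifit3b and Ifit2, are of the same family (named after their values were seen). Ifit2 was not called without the second 1 kPa or the first 20 kPa library. Ifit3 and Ifit3b are close copies of each other, so reads may be split between them. The number called lower was 11 without the second 1 kPa library, 11 without the first 20 kPa library and 9 without the second. Antigen presentation had 5 of 17 lower and 0 higher (29.4% called, against 18.9% of all genes), with a median of -0.16. Among the 5 were Nlrc5, the transcriptional activator of MHC class I genes (-0.48, SE 0.083, adjusted p = 6.1e-05), and H2-K1, one of those genes (-0.26, SE 0.055, adjusted p = 0.00074).

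Matrix metalloproteinases are secreted or membrane-bound enzymes that cut collagen and other matrix proteins. Mmp3, stromelysin 1, was at 6456 and 6359.8 CPM on 1 kPa and 1385 and 1383 CPM on 20 kPa (-2.21, SE 0.063, adjusted p = 2.5e-21), the largest loss in CPM of any called gene with a symbol. Mmp13, a collagenase, was at 248 and 232 CPM on 1 kPa and 47.7 and 41.7 CPM on 20 kPa (-2.42, SE 0.071, adjusted p = 2.9e-21). Mmp12, an elastase, was at 7.41 and 6.73 CPM on 1 kPa and 2.19 and 1.21 CPM on 20 kPa (-2.05, SE 0.25, adjusted p = 2.2e-07). Across the list 9 of 17 tested members were lower and 1 higher, but most of the others moved little, with a median of -0.22. Mmp2, the abundant gelatinase A, was at 1304 and 1278 CPM on 1 kPa and 1116 and 1039 CPM on 20 kPa (-0.26, SE 0.058, adjusted p = 0.0015); its call and that of Mmp19 were lost without the second 20 kPa library, where 3 members were lower. Mmp1b was near the floor, at means of 0.817 CPM on 1 kPa and 0.122 CPM on 20 kPa (-2.68, SE 0.7), and was named after its value was seen. It lies with Mmp13, Mmp12, Mmp3 and Mmp10 in the interval chr9:7272514-7510240. All 5 tested protein-coding genes there were lower, but Mmp10 lost its call with DESeq2 and without either 1 kPa library or the second 20 kPa library. On one side of it Dcun1d5, which encodes no protease, was at 72.5 and 69.4 CPM on 1 kPa and 69.2 and 72.2 CPM on 20 kPa, log2 fold change -0.01, and on the other Mmp8 was at 9.7 and 7.85 CPM on 1 kPa and 9.11 and 7.36 CPM on 20 kPa (-0.10). The interval and these 2 genes were chosen after their values were seen.

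The promoters of Mmp3 and Mmp13 each hold the AP-1 motif TGANTCA shortly before the start, and the stretches are shown with the match in capitals.
Mmp3, chr9:7445751-7445807 (plus strand): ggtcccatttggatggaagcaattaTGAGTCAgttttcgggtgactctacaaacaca
Mmp13, chr9:7272454-7272510 (plus strand): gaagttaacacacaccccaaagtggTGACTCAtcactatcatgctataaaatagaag
The matches begin 46 and 35 bases before the start. On either strand this motif was in 14.9% of promoters of genes at least 2-fold lower, 11% of those at least 2-fold higher and 5.54% of all.

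AP-1 is a dimer of FOS and JUN proteins, whose genes respond within minutes to growth factors and stress. Of 26 AP-1 and immediate early genes 21 were lower on 20 kPa and 0 higher, with a median of -0.35. Ier3, an early gene that protects from apoptosis, was at 225 and 229 CPM on 1 kPa and 107 and 102 CPM on 20 kPa (-1.12, SE 0.058, adjusted p = 3.1e-15). Nr4a1, an orphan nuclear receptor, was at 249.8 and 245 CPM on 1 kPa and 138 and 139 CPM on 20 kPa (-0.84, SE 0.057, adjusted p = 9.9e-13). Dusp1, a phosphatase that switches off MAP kinases, was at 209 and 199 CPM on 1 kPa and 126 and 128 CPM on 20 kPa (-0.68, SE 0.058, adjusted p = 1.9e-10). Fosb, a FOS protein, was at 21 and 23.4 CPM on 1 kPa and 9.94 and 11.2 CPM on 20 kPa (-1.07, SE 0.12, adjusted p = 8e-08). Fosl1 fell by a like amount (-1.05), but 57.2% of its exons overlap another gene. ERK feedback genes were 7 lower and 1 higher of 18, led by Ereg, the EGF receptor ligand epiregulin, at 256 and 262 CPM on 1 kPa and 123 and 125 CPM on 20 kPa (-1.07, SE 0.057, adjusted p = 4.7e-15).

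Protease inhibitors and ADAMTS proteases were mixed. Among TIMP and ADAMTS genes 7 of 20 tested were higher and 5 lower. Timp3, an inhibitor that binds the matrix, was at 276 and 267 CPM on 1 kPa and 609.8 and 549 CPM on 20 kPa (1.09, SE 0.065, adjusted p = 6.1e-14), with 21.3% of its exons shared with another gene. Reck, a membrane inhibitor of metalloproteinases, was at 116 and 120.0 CPM on 1 kPa and 181 and 171 CPM on 20 kPa (0.57, SE 0.06, adjusted p = 1.2e-08). Adamts6 rose (0.81, SE 0.092, adjusted p = 6.4e-08), whereas Adamts7 was at 64.3 and 62.8 CPM on 1 kPa and 31.9 and 30.6 CPM on 20 kPa (-1.02, SE 0.079, adjusted p = 2.7e-11). Among plasminogen activators and serpins 7 of 17 were lower and 1 higher; this became 4, 4 and 3 lower without the second 1 kPa, first 20 kPa and second 20 kPa library.

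Genes of glucose metabolism were mostly lower on 20 kPa. Glycolysis splits glucose to pyruvate, which lactate dehydrogenase turns into lactate for export. Of 25 glycolysis genes 20 were lower on 20 kPa and 1 higher, with a median of -0.64. Slc2a1, the glucose transporter GLUT1, was at 229 and 238 CPM on 1 kPa and 124 and 121 CPM on 20 kPa (-0.93, SE 0.057, adjusted p = 1.5e-13). Pfkfb3, which makes the activator of the committed step, was at 176 and 177 CPM on 1 kPa and 92.8 and 80.5 CPM on 20 kPa (-1.02, SE 0.067, adjusted p = 4.5e-13). Pfkl, a phosphofructokinase, was at 344 and 354 CPM on 1 kPa and 199 and 194 CPM on 20 kPa. At the other end, the lactate exporters Slc16a1 and Slc16a3 were at 209 and 205 CPM on 1 kPa and 91.7 and 89.7 CPM on 20 kPa and at 324 and 311 CPM on 1 kPa and 141 and 142 CPM on 20 kPa respectively, with log2 fold changes of -1.19 and -1.17. The member that rose was Ldhb, the lactate dehydrogenase subunit of oxidative tissues, at 44.4 and 49.4 CPM on 1 kPa and 80.3 and 79.9 CPM on 20 kPa (0.77, SE 0.075, adjusted p = 3.5e-09), named after its value was seen.

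Many glycolysis genes are targets of the hypoxia-inducible factors, which oxygen-dependent hydroxylases mark for destruction. The list of hypoxia-inducible genes had 22 of 25 lower and 2 higher (0 or 1 higher without any one gel library), with a median of -0.70. Car9, carbonic anhydrase 9, was at 164 and 171 CPM on 1 kPa and 67.8 and 67.7 CPM on 20 kPa (-1.30, SE 0.062, adjusted p = 3.7e-16). Egln3, one of the hydroxylases and itself a target, was at 32.6 and 30.0 CPM on 1 kPa and 8.68 and 8.19 CPM on 20 kPa (-1.89, SE 0.11, adjusted p = 8.8e-14). Adm, the vasodilator adrenomedullin, was at 112 and 107 CPM on 1 kPa and 41.8 and 45 CPM on 20 kPa (-1.34, SE 0.067, adjusted p = 1.3e-15). Ak4, a mitochondrial adenylate kinase, was at 63.9 and 67.8 CPM on 1 kPa and 25.9 and 25.2 CPM on 20 kPa (-1.37, SE 0.083, adjusted p = 1.1e-13). Epas1, which encodes HIF-2 alpha, was at 300.4 and 297 CPM on 1 kPa and 155 and 149 CPM on 20 kPa (-0.97, SE 0.058, adjusted p = 7.1e-14). These 5 had the smallest p of the list, and for all 5 the 20 kPa libraries lay below the 1 kPa libraries. Of all tested genes 60.1% had libraries that did not overlap between gels.

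The hypoxia element core ACGTG was found in 15 of 27 promoters of the hypoxia list (55.6%) and 17 of 36 of the glycolysis list (47.2%), against 24.6% of all. It was in 17.9% of promoters of genes at least 2-fold lower and 14.7% of those at least 2-fold higher. Car9 and Slc2a1 are shown, with the match on either strand in capitals.
Car9, chr4:43506983-43507025 (plus strand): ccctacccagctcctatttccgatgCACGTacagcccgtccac
Slc2a1, chr4:119108684-119108738 (plus strand): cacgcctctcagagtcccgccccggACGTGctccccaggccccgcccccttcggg

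**Figure D4:**
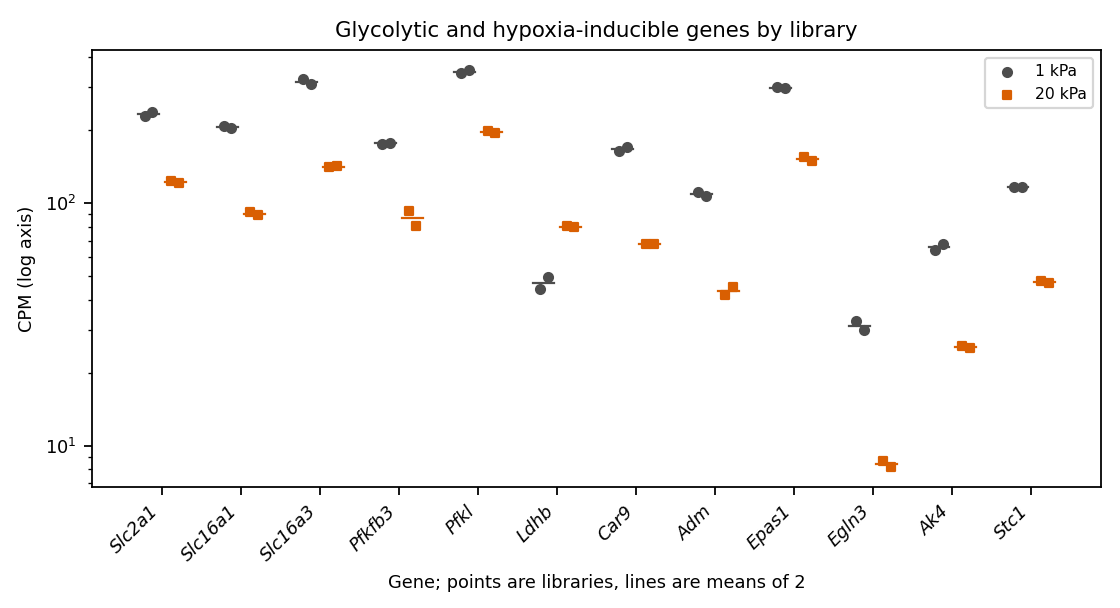
CPM of each gel library on a log axis, with lines at the means of 2, for glycolysis and hypoxia-inducible genes and for Stc1. Ldhb lies higher on 20 kPa, the other 11 lie lower, and no gene has libraries that overlap between gels. All of them were called, and 60.1% of all tested genes have libraries that do not overlap.

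Genes of oxidative phosphorylation were mostly not called. Of 33 nuclear genes for oxidative phosphorylation 3 were higher and 0 lower (9.09% called, against 18.9% of all genes), and the median was 0.08. All 3 calls were lost with DESeq2 and without the second 1 kPa or the second 20 kPa library and 1 was left without the first 20 kPa library, while 8 were higher without either glass library. Among 12 mitochondrially encoded genes and 30 cytosolic ribosomal protein genes, 0 were called, at adjusted p of 0.16 or above in the first and 0.15 or above in the second. The mitochondrial list had 1 at an unadjusted p under 0.05, 0 called by DESeq2 and 0 by limma-voom, and 3 were higher without the first 1 kPa library. The ribosomal list had 2 at an unadjusted p under 0.05, 0 called by DESeq2 and 0 by limma-voom. Genes of the oxidative stress factor NRF2 were 13 lower and 2 higher of 25. Slc7a11, the cystine importer, was at 17.5 and 18.9 CPM on 1 kPa and 5.65 and 4.36 CPM on 20 kPa (-1.86, SE 0.15, adjusted p = 4.1e-11), Fth1, the ferritin heavy chain, at 7012 and 7414 CPM on 1 kPa and 5088 and 5213 CPM on 20 kPa (-0.49, SE 0.065, adjusted p = 1.4e-06), and Mt1, metallothionein 1, at 467 and 499 CPM on 1 kPa and 330.1 and 339 CPM on 20 kPa. Nqo1, a quinone reductase often used as the NRF2 readout, was higher, at 46.2 and 49.3 CPM on 1 kPa and 68.4 and 66.6 CPM on 20 kPa (0.50, SE 0.07, adjusted p = 2.3e-06). Without the second 1 kPa library 6 members were lower, and without the second 20 kPa library 8. Without any one gel library 1 was higher. Fth1 has processed copies in the genome that could take part of its reads.

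Cartilage matrix genes rose on 20 kPa. The 15 chondrocyte markers included 14 that could be tested, and all 14 were called higher, with a median of 0.84. Their summed level was between 1227 and 1267 CPM on 1 kPa and between 2229 and 2317 CPM on 20 kPa. Matn1 was the marker left out, with at most 4 counts in a library. Matn3, matrilin 3, had the largest rise of all named genes, at 1.17 and 0.616 CPM on 1 kPa and 5.8 and 6.93 CPM on 20 kPa (2.80, SE 0.28, adjusted p = 4.6e-09). Acan, aggrecan, the main proteoglycan of cartilage, was at 102 and 101 CPM on 1 kPa and 220.5 and 205 CPM on 20 kPa (1.06, SE 0.064, adjusted p = 8.4e-14). Col2a1, the main cartilage collagen, was at 281 and 268 CPM on 1 kPa and 531 and 505 CPM on 20 kPa (0.92, SE 0.062, adjusted p = 1e-12), and Col11a1, which forms fibrils with it, at 245 and 236 CPM on 1 kPa and 527 and 509 CPM on 20 kPa (1.11, SE 0.057, adjusted p = 2.7e-15). Cnmd, chondromodulin, was at 21.1 and 18.8 CPM on 1 kPa and 51.9 and 49 CPM on 20 kPa (1.33, SE 0.087, adjusted p = 4.6e-13). The ear contains cartilage, the labels name fibroblasts, and the part that chondrocytes among the cells may have in these values was not tested.

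Small leucine-rich proteoglycans bind collagen and shape its fibrils. Of 13 tested 4 were higher and 2 lower (0 lower without the first 1 kPa or the second 20 kPa library). Ogn, osteoglycin, was at 72.6 and 64.5 CPM on 1 kPa and 318 and 302 CPM on 20 kPa (2.18, SE 0.088, adjusted p = 9.2e-18). Omd, osteomodulin, was at 4.63 and 5.16 CPM on 1 kPa and 25.3 and 26.8 CPM on 20 kPa (2.42, SE 0.15, adjusted p = 2e-13). Aspn, asporin, was at 72 and 68 CPM on 1 kPa and 251 and 221 CPM on 20 kPa (1.75, SE 0.082, adjusted p = 3.2e-16). Fmod, fibromodulin, rose less (0.53, SE 0.065, adjusted p = 2.6e-07). Dcn, decorin, went the other way, at 3766 and 3318 CPM on 1 kPa and 2960.1 and 2866 CPM on 20 kPa (-0.28, SE 0.071, adjusted p = 0.0047), a call lost with DESeq2 and without the first 1 kPa or the second 20 kPa library. Ogn, Omd and Aspn are neighbours at chr13:49504810-49624501 with Ecm2, at 6.97 and 8.07 CPM on 1 kPa and 16 and 13.3 CPM on 20 kPa (0.97, SE 0.14, adjusted p = 3.8e-06), and all 4 protein-coding genes tested in the interval were higher. Next to it Nol8, a nucleolar protein gene, was at 23.6 and 24.5 CPM on 1 kPa and 27.6 and 28.5 CPM on 20 kPa (0.22, adjusted p = 0.16). Ecm2, Nol8 and the interval were chosen after their values were seen.

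Elastic fibre genes were 7 higher and 3 lower of 19 (1 lower without any one gel library). Eln, elastin itself, was at 175 and 165 CPM on 1 kPa and 477 and 466 CPM on 20 kPa (1.47, SE 0.057, adjusted p = 4.4e-18). Mfap4 and Mfap2, microfibril proteins, were at 20.5 and 20.4 CPM on 1 kPa and 51.4 and 52.5 CPM on 20 kPa and at 34.6 and 35.8 CPM on 1 kPa and 62.5 and 60.6 CPM on 20 kPa. Fbln5, which guides elastin onto microfibrils, was at 637 and 648 CPM on 1 kPa and 995 and 963 CPM on 20 kPa (0.61, SE 0.057, adjusted p = 1.8e-09). Matricellular proteins were 7 higher and 2 lower of 21 (4 higher without the first 20 kPa library, 1 lower without the first 1 kPa or the second 20 kPa library). Postn, periostin, which is deposited by active fibroblasts, was at 565 and 505 CPM on 1 kPa and 1193 and 1121 CPM on 20 kPa (1.11, SE 0.069, adjusted p = 1.9e-13), and Comp, a cartilage and tendon protein, was at 152 and 159 CPM on 1 kPa and 245 and 236 CPM on 20 kPa (0.63, SE 0.064, adjusted p = 8.4e-09). Col3a1, the second fibrillar collagen of skin, rose from 6547 and 6276 CPM to 8625 and 8057 CPM (0.38, SE 0.068, adjusted p = 0.00011), whereas Col1a1 was at 8058 and 7811 CPM on 1 kPa and 8145 and 8066 CPM on 20 kPa (0.03, SE 0.068, adjusted p = 0.81). Spp1, osteopontin, was at 9020.0 and 8469 CPM on 1 kPa and 10626 and 10526 CPM on 20 kPa (0.27, SE 0.067, adjusted p = 0.0035), a call lost without the second 1 kPa library or the first 20 kPa library, and 18.8% of its exons overlap another gene.

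Collagens as a group were mixed, 6 higher and 7 lower of 26. Col8a2 was at 33.3 and 34.7 CPM on 1 kPa and 134 and 134 CPM on 20 kPa (1.98, SE 0.07, adjusted p = 3.5e-19) and Col8a1 rose as well (0.66, SE 0.059, adjusted p = 7.7e-10). Both encode the short-chain collagen VIII. Col5a3 was at 253 and 257 CPM on 1 kPa and 141 and 135 CPM on 20 kPa (-0.88, SE 0.057, adjusted p = 4.8e-13) and Col24a1 at 42.9 and 37.4 CPM on 1 kPa and 20.3 and 17.8 CPM on 20 kPa (-1.08, SE 0.097, adjusted p = 7.5e-10). The number of lower collagens was 4 without the first 1 kPa or the second 20 kPa library. Enzymes that process collagen were 3 higher and 7 lower of 22 (5 higher without either glass library). P4ha2, a prolyl hydroxylase, was at 287 and 296 CPM on 1 kPa and 157 and 152 CPM on 20 kPa (-0.91, SE 0.058, adjusted p = 2.9e-13), and Loxl2, a crosslinking oxidase, was at 173 and 164 CPM on 1 kPa and 109 and 109.9 CPM on 20 kPa (-0.63, SE 0.059, adjusted p = 1.7e-09).

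**Figure D5:**
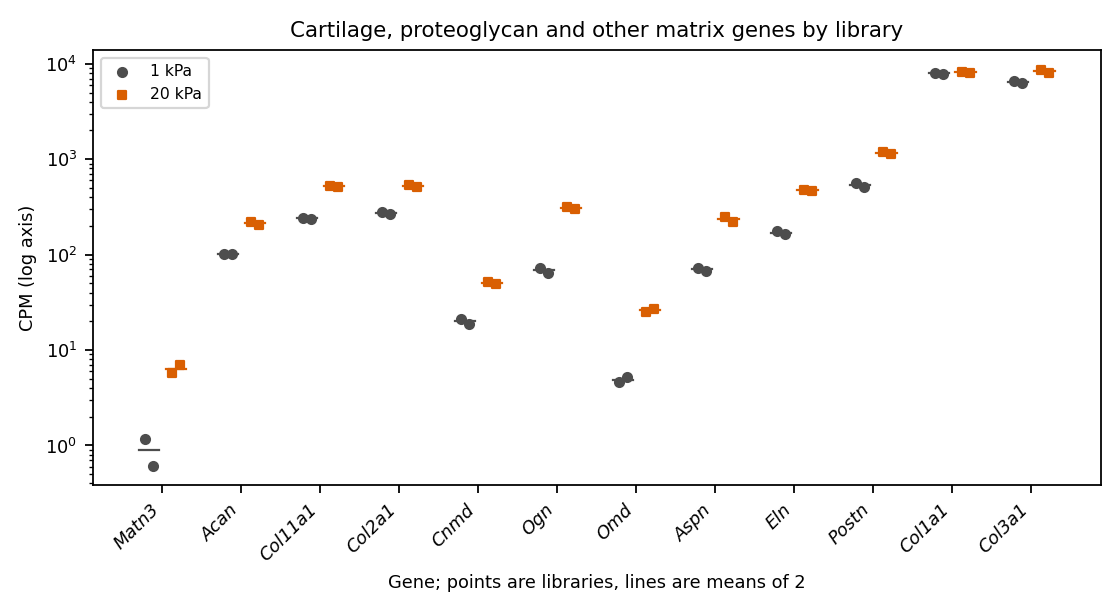
CPM of each gel library on a log axis, with lines at the means of 2, for cartilage, proteoglycan and other matrix genes. Matn3, Ogn and Omd show the widest gaps, all higher on 20 kPa, and Col1a1 has 8058 and 7811 CPM against 8145 and 8066.

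Secreted growth factor systems moved in part. The share called was 44.4% for Wnt genes and 72.2% for the insulin-like growth factor system. It was 62.5% for the TGF-beta list and 30% for the BMP list, against 18.9% of all genes. Wnt proteins, their receptors and their secreted antagonists were 13 higher and 3 lower of 36. The number lower was 1 without the second 1 kPa or the first 20 kPa library, 0 without the second 20 kPa library and 5 without either glass library. Dkk3, of the Dickkopf family, was at 133 and 135 CPM on 1 kPa and 274 and 264 CPM on 20 kPa (1.01, SE 0.058, adjusted p = 3e-14). Wnt5b, a Wnt ligand, was at 5.26 and 5.49 CPM on 1 kPa and 18.2 and 15.5 CPM on 20 kPa (1.65, SE 0.14, adjusted p = 2.7e-10), and Frzb, a soluble antagonist expressed in cartilage, was at 13.4 and 12 CPM on 1 kPa and 25.2 and 25.3 CPM on 20 kPa (0.99, SE 0.10, adjusted p = 1.6e-08). Lrp6, the co-receptor, rose (0.54, SE 0.057, adjusted p = 1.8e-08). In the insulin-like growth factor system 7 of 18 were higher and 6 lower. Igfbp5, a binding protein, was at 813 and 851 CPM on 1 kPa and 1719.8 and 1691 CPM on 20 kPa (1.04, SE 0.061, adjusted p = 6.3e-14), Igfbp4 at 3163 and 3136 CPM on 1 kPa and 3823 and 3794 CPM on 20 kPa (0.27, SE 0.064, adjusted p = 0.002, lost without the second 1 kPa library), and Pappa2, the protease that cuts binding proteins, at 19.9 and 21.6 CPM on 1 kPa and 55.9 and 50.8 CPM on 20 kPa (1.36, SE 0.092, adjusted p = 9.7e-13). Stc1, stanniocalcin 1, which inhibits such proteases, fell (-1.30, SE 0.069, adjusted p = 4.9e-15). In the TGF-beta list 5 of 24 were higher and 10 lower; the latter number was 6 without the first 1 kPa library and 5 without the second 20 kPa library. Tgfb3 was at 114 and 112 CPM on 1 kPa and 171 and 177 CPM on 20 kPa (0.62, SE 0.059, adjusted p = 1.9e-09) and Pmepa1, a TGF-beta target that limits the signal, at 125 and 141 CPM on 1 kPa and 212 and 199 CPM on 20 kPa (0.63, SE 0.062, adjusted p = 4.2e-09). Of the lower members, Fst, the activin antagonist follistatin, was at 177 and 181 CPM on 1 kPa and 125 and 119 CPM on 20 kPa (-0.55, SE 0.058, adjusted p = 1.7e-08), and Bhlhe40, a transcription repressor, was at 135 and 139.8 CPM on 1 kPa and 108 and 104 CPM on 20 kPa (-0.37, SE 0.06, adjusted p = 2.6e-05). Grem1, an antagonist of BMPs, was at 883 and 895 CPM on 1 kPa and 556 and 509 CPM on 20 kPa (-0.74, SE 0.058, adjusted p = 3.2e-11), while the BMP list as a whole had 5 higher and 4 lower of 30. It had 3 higher without either 1 kPa library or the first 20 kPa library, and 1 or 2 lower without any one gel library.

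Genes that report tension in the cell showed little common direction. Targets of MRTF and SRF and contractile genes were 8 higher and 5 lower of 29, with a median of 0.05. The share called was 44.8%, against 18.9% of all genes. Without the second 1 kPa or the second 20 kPa library 3 were lower. Acta2, smooth muscle actin, the marker of myofibroblasts, was at 297 and 324 CPM on 1 kPa and 374 and 387 CPM on 20 kPa (0.29, SE 0.058, adjusted p = 0.00042), and without the first 1 kPa library its adjusted p was 0.064. Mylk, myosin light chain kinase, was at 26.9 and 29.7 CPM on 1 kPa and 46.1 and 49.1 CPM on 20 kPa (0.75, SE 0.083, adjusted p = 4e-08) and Myh10, a nonmuscle myosin, at 155 and 149 CPM on 1 kPa and 226 and 212 CPM on 20 kPa (0.53, SE 0.06, adjusted p = 7e-08). Zyx, zyxin of focal adhesions, was lower, at 361 and 366 CPM on 1 kPa and 279 and 287 CPM on 20 kPa (-0.36, SE 0.057, adjusted p = 1.9e-05). Tagln was counted at 1.85 and 1.96 CPM on 1 kPa and 1.95 and 2.13 CPM on 20 kPa with an adjusted p of 0.86, but 67.9% of its exons overlap another gene, so its level is uncertain.

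The list of YAP and TAZ targets and Hippo pathway genes had 3 higher and 9 lower of 31, with a median of 0.01. Its share called was 38.7%, against 18.9% of all genes. Ccn1 was at 625 and 607 CPM on 1 kPa and 569 and 582 CPM on 20 kPa and was not called (adjusted p = 0.27). Ccn2 was at 878 and 884 CPM on 1 kPa and 1006 and 947 CPM on 20 kPa and missed the threshold (adjusted p = 0.07), though 6 alternatives called it higher. Ankrd1 was low, at 6.14 and 7.23 CPM on 1 kPa and 4.44 and 4.75 CPM on 20 kPa (-0.54, SE 0.16, adjusted p = 0.021), and its call was lost with DESeq2, without the second 1 kPa library and without either 20 kPa library. Of the members with the smallest p, Nt5e, the surface enzyme CD73, was at 155 and 159 CPM on 1 kPa and 101 and 97.4 CPM on 20 kPa (-0.66, SE 0.059, adjusted p = 5.9e-10), Axl, a receptor kinase, was at 541 and 564 CPM on 1 kPa and 388 and 389 CPM on 20 kPa (-0.51, SE 0.058, adjusted p = 7.3e-08) and Amotl2, a Hippo scaffold, was at 545 and 562 CPM on 1 kPa and 398 and 399 CPM on 20 kPa (-0.47, SE 0.058, adjusted p = 2.5e-07). The 9 that were lower became 5 without the second 20 kPa library, and the 3 that were higher became 6 without either glass library.

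Integrins and focal adhesion genes were 4 higher and 5 lower of 31 (29% called, against 18.9% of all genes). Itga5, the fibronectin receptor subunit, was lower (-0.49, SE 0.056, adjusted p = 7.4e-08), and Itga1 and Itga11, subunits of collagen receptors, were higher (0.54 and 0.40). Without any one gel library 2 or 3 were lower, and without either glass library 8. For actin monomers, cofilin and nuclear actin transport 2 of 22 were higher and 3 lower (1 higher without either 1 kPa library or the first 20 kPa library). Actb was at 1889 and 1955 CPM on 1 kPa and 1918 and 1992 CPM on 20 kPa, Cfl1, cofilin 1, at 561 and 572 CPM on 1 kPa and 572 and 593 CPM on 20 kPa with 16.5% of its exons shared with another gene, and Ipo9, the importer of actin, at 140.0 and 147 CPM on 1 kPa and 144 and 138 CPM on 20 kPa. Their adjusted p were 0.84, 0.69 and 0.86. Processed copies of actin and cofilin genes could take part of the reads. Xpo6, the exporter of actin, was at 104 and 103 CPM on 1 kPa and 86.1 and 85.7 CPM on 20 kPa (-0.27, SE 0.061, adjusted p = 0.0014). The share called was 22.7% in this list and 11.8% among lamina and LINC complex genes, against 18.9% of all genes. Of 17 lamina and LINC complex genes 2 were lower and 0 higher (0 or 1 lower without any one gel library), and Lmna, lamin A/C, was at 779.9 and 770.4 CPM on 1 kPa and 790.1 and 787 CPM on 20 kPa (adjusted p = 0.82). Piezo2, a stretch-gated channel, was at 13.8 and 17.4 CPM on 1 kPa and 26 and 26.4 CPM on 20 kPa (0.75, SE 0.11, adjusted p = 4.8e-06), among 5 higher and 4 lower of 19 channel and caveola genes. Without any one gel library 1 of these 19 was higher and 1 or 2 were lower.

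Cell division genes were somewhat lower on 20 kPa. All 30 genes of G2 and mitosis had log2 fold changes below 0, of which 15 were called lower and 0 higher, with a median of -0.23. Plk1, a mitotic kinase, was at 38.9 and 42.2 CPM on 1 kPa and 28.6 and 27.5 CPM on 20 kPa (-0.53, SE 0.08, adjusted p = 8.4e-06), and Kif2c, a kinesin of chromosome attachment, was at 28.9 and 29 CPM on 1 kPa and 19.9 and 18.5 CPM on 20 kPa (-0.60, SE 0.093, adjusted p = 1.5e-05). Mki67, the proliferation marker, was at 177 and 183 CPM on 1 kPa and 150.0 and 146 CPM on 20 kPa (-0.28, SE 0.057, adjusted p = 0.00048). The number was 7 without the second 1 kPa library and 8 without the second 20 kPa library. DNA replication and S phase genes had 8.57% called, against 18.9% of all genes: of 35, 0 were higher and 3 lower. This number was 0 without the second 1 kPa library, 1 without the first 20 kPa library and 9 without either glass library. Cdkn1c, a CDK inhibitor, was at 18.2 and 17.3 CPM on 1 kPa and 44.3 and 43.6 CPM on 20 kPa (1.31, SE 0.098, adjusted p = 1.2e-11), with 30.7% of its exons shared with another gene.

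Genes of chromatin enzymes differed by little in RNA, which does not measure the chromatin state that the series set out to study. The share called was 16.7% for histone deacetylases, 22.6% for methyltransferases, 25% for demethylases and 25% for DNA methylation and hydroxymethylation genes, against 18.9% of all genes. Histone acetyltransferases had 3 of 17 lower and 0 higher, a share (17.6%) near the 18.9% of all genes. The 3 were Crebbp, at 88 and 93 CPM on 1 kPa and 77.7 and 74.9 CPM on 20 kPa (-0.24, SE 0.065, adjusted p = 0.0069), Kat2a, at 66.2 and 69.4 CPM on 1 kPa and 58 and 58 CPM on 20 kPa (-0.23, SE 0.068, adjusted p = 0.018), and Ep300, at 121 and 117 CPM on 1 kPa and 109 and 99.7 CPM on 20 kPa (-0.18, SE 0.062, adjusted p = 0.036). Crebbp lost its call without the second 1 kPa or the second 20 kPa library, Kat2a with scaling by total counts and without any one gel library, and Ep300 with that scaling, with no filter, with DESeq2 and without either 1 kPa library or the second 20 kPa library. Histone deacetylases had 2 lower, Hdac7 (-0.47, SE 0.064, adjusted p = 1.7e-06) and Hdac5 (-0.32, SE 0.06, adjusted p = 0.00017), and 1 higher, Hdac2 (0.24, SE 0.064, adjusted p = 0.0081), whose call was lost without any one gel library. Hdac1 was at 136 and 134 CPM on 1 kPa and 139 and 132 CPM on 20 kPa (adjusted p = 0.94). Histone methyltransferases had 6 lower and 1 higher of 31 (2 lower without the second 1 kPa library or either 20 kPa library, 0 higher without either 1 kPa library or the first 20 kPa library), and demethylases 5 lower and 0 higher of 20 (3 lower without the first 1 kPa or the second 20 kPa library, 1 higher without either glass library). Kdm3a, a demethylase and known hypoxia target, was at 80.2 and 81.5 CPM on 1 kPa and 62.4 and 61.5 CPM on 20 kPa (-0.38, SE 0.065, adjusted p = 5.3e-05), and Jmjd6, an oxygen-dependent hydroxylase, was at 63.3 and 65.1 CPM on 1 kPa and 41.4 and 45.3 CPM on 20 kPa (-0.56, SE 0.075, adjusted p = 1e-06). Dnmt1, which maintains DNA methylation, was at 175 and 174 CPM on 1 kPa and 147 and 143 CPM on 20 kPa (-0.27, SE 0.059, adjusted p = 0.0013). DNA methylation and hydroxymethylation genes had 3 lower and 1 higher of 16, with 1 lower without the second 1 kPa library and 0 higher without either 1 kPa library or the first 20 kPa library.

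The neuronal list was largely silent, as 15 of its 25 genes did not pass the filter on low counts. The reprogramming factors Pou3f2 and Myt1l had at most 1 and 3 counts in any library. Among the 10 tested 3 were higher and 1 lower (0 lower without the second 1 kPa or the second 20 kPa library). L1cam, an adhesion molecule, was at 10.5 and 11.5 CPM on 1 kPa and 18.9 and 18.4 CPM on 20 kPa (0.76, SE 0.12, adjusted p = 1.4e-05), Map2, a microtubule protein, at 4.97 and 4.82 CPM on 1 kPa and 8.58 and 8.43 CPM on 20 kPa (0.79, SE 0.15, adjusted p = 0.0003) and Tubb3 at 19.2 and 19.5 CPM on 1 kPa and 20.7 and 21.2 CPM on 20 kPa (adjusted p = 0.44).

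Fat-related genes were mostly lower on 20 kPa, with 13 of 23 adipogenic and lipid storage genes lower and 4 higher (2 higher without either 1 kPa library or the first 20 kPa library). Dgat2, which makes triglycerides, was at 51.9 and 50.4 CPM on 1 kPa and 14.1 and 12.3 CPM on 20 kPa (-1.95, SE 0.098, adjusted p = 1.3e-15). Angptl4, a lipase inhibitor that is also hypoxia-responsive, was at 346 and 337 CPM on 1 kPa and 149 and 146 CPM on 20 kPa (-1.21, SE 0.056, adjusted p = 2.5e-16). Fabp4 and Plin1, a fatty acid carrier and a lipid droplet coat, were at 66.9 and 60.5 CPM on 1 kPa and 27.9 and 26.3 CPM on 20 kPa and at 14.2 and 12.9 CPM on 1 kPa and 4.78 and 3.63 CPM on 20 kPa. Apod, a lipocalin, rose (1.15, SE 0.057, adjusted p = 1.2e-15). The 7 of 9 tested adipocyte markers summed to between 705 and 752 CPM on 1 kPa and between 550 and 575 CPM on 20 kPa, and Lep had 0 counts in every library; the part of adipocytes in the result was not tested. Of dermal fibroblast subtype markers 5 were higher and 7 lower of 19, such as Lrig1 (-0.90, SE 0.06, adjusted p = 7.2e-13) and Penk (0.80, SE 0.056, adjusted p = 2.3e-12); 3 were higher without any one gel library and 4 lower without the first 20 kPa library.

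The other largest rises are given gene by gene, and whether they share a group was not tested. Slc40a1, ferroportin, the iron exporter, was at 5.17 and 5.83 CPM on 1 kPa and 26.5 and 27.1 CPM on 20 kPa (2.29, SE 0.13, adjusted p = 2e-14). Aldh1a7, an aldehyde dehydrogenase, was at 5.56 and 6.11 CPM on 1 kPa and 36.2 and 34.3 CPM on 20 kPa (2.60, SE 0.11, adjusted p = 2.2e-17). C1qtnf3, a secreted C1q-like protein also known from cartilage, was at 3.22 and 2.86 CPM on 1 kPa and 15.2 and 18.1 CPM on 20 kPa (2.45, SE 0.19, adjusted p = 2.3e-11), and Chrdl2, a chordin-like BMP antagonist, was at 1.46 and 1.12 CPM on 1 kPa and 7.07 and 7.02 CPM on 20 kPa (2.43, SE 0.25, adjusted p = 1.2e-08). Fam198a, Calml3, Atp6v0a4, Rab11fip4 and Wfdc3 rose between 1.98 and 2.62 on the log2 scale. Among the largest falls outside inflammation was Myh1, a skeletal muscle myosin, at 7.41 and 8.13 CPM on 1 kPa and 2.1 and 1.5 CPM on 20 kPa (-2.11, SE 0.22, adjusted p = 2e-08). The 7 tested skeletal muscle markers were 3 lower and 0 higher (1 lower with DESeq2 and without the second 20 kPa library) and summed to 40.0 CPM in both 1 kPa libraries and to between 23.1 and 27.5 CPM on 20 kPa, with 0 counts of Pax7 in any library; their part in the value of Myh1 was not tested. Vnn3, a vanin of inflamed tissue, was at 13.7 and 14.5 CPM on 1 kPa and 1.56 and 1.4 CPM on 20 kPa (-3.24, SE 0.20, adjusted p = 8.8e-14).

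Cholesterol synthesis had 1 gene higher and 1 lower of 25 (8% called), fatty acid synthesis 2 and 2 of 18 (22.2%), and lysosome and autophagy 5 and 2 of 26 (26.9%), against 18.9% of all genes. Without either 1 kPa library or the first 20 kPa library 1 lysosome gene was lower, and without either glass library 4. Basement membrane genes were 4 higher and 6 lower of 17 (1 higher without the first and 3 lower without the second 20 kPa library), of which Smoc2, a calcium-binding matrix protein, had the smallest p, at 149 and 158 CPM on 1 kPa and 322 and 305 CPM on 20 kPa (1.03, SE 0.058, adjusted p = 2e-14). ATF4 targets were 8 lower and 0 higher of 24 (2 higher without either glass library). Endothelial markers were 2 higher and 1 lower of 11 (0 lower without any one gel library), and Erg, the transcription factor with the smallest p among them, was at 30.7 and 29.4 CPM on 1 kPa and 61.8 and 57.1 CPM on 20 kPa (0.98, SE 0.079, adjusted p = 6e-11), whereas Cdh5, which defines endothelium, was at 9.79 and 7.96 CPM on 1 kPa and 6.68 and 7.56 CPM on 20 kPa and was not called (adjusted p = 0.15). Of 6 keratinocyte markers tested edgeR called 0, with 2 at an unadjusted p under 0.05, 0 called by DESeq2 and 0 by limma-voom.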

How the data were processed

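Poly(A) RNA-seq read counts per gene were analysed for 2 libraries on each of glass, a 1 kPa gel and a 20 kPa gel. Per the submitters' processing notes, the tools included Trim Galore, cutadapt, STAR 2.7.10b and featureCounts, with the mm10 build; the annotation, strand setting and handling of reads in several genes are not stated in the sources at hand. The deposited values are raw counts, whole numbers for 57010 gene identifiers, of which 91.4% matched GENCODE M21, the source of symbols and coordinates. RefSeq promoters (GRCm38.p6) were matched by symbol for 11169 of the tested genes.

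Genes were kept by filterByExpr on group (16093), scaled by TMM and tested with edgeR 4.0.16 (R 4.3.3) in a quasi-likelihood fit of all 6 libraries, with 3 residual degrees of freedom, as 20 kPa minus 1 kPa. The adjusted p threshold was 0.05 after Benjamini-Hochberg adjustment over all tested genes. Standard errors were taken from the F statistic, as the absolute log2 fold change over its root. Simulated counts for 16093 genes in this comparison, with a constant BCV near the fitted one, tested the code: 38 of 50 genes changed 1.41-fold, 44 of 50 changed 2-fold, and 50 of 50 changed 4-fold were recovered. Alternatives were total counts, RLE factors, no filter, a stricter filter (5 CPM in 2 libraries), DESeq2 1.42.0, limma-voom (limma 3.58.1), the gels alone, a replicate block and each library left out.

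Named genes were the 12 largest rises and 12 largest falls (5 CPM or more in the higher group, no overlap), the 5 largest CPM differences each way, up to 5 members per list by smallest p, and a fixed set; some genes that the rule names are not reported here. The comparison and the 64 lists were chosen with earlier results of these data known. Lists are described by counts and medians, with no test of the list. Reads in overlapping genes or near-identical copies may be split or lost.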

Additional observations from a re-analysis of the deposited data

How the results depend on the processing

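With 2 libraries a group, calls depended on each library. Over the fits that left out 1 library, glass included, the number of called genes ranged from 1680 to 3824, the number higher on 20 kPa from 748 to 1930, the number lower from 932 to 1896, the number at least 2-fold higher from 177 to 234 and at least 2-fold lower from 197 to 305. In these fits the lone library of a group is assumed to vary like the others. DESeq2 called 2022 genes, 861 of them higher, and 181 at least 2-fold lower. The stricter filter, which tested 11298 genes, left 102 at least 2-fold higher and 125 at least 2-fold lower. The counts under the other settings were within 1.5 times of those reported. Fitted alone, without glass in the estimate of spread, the gels gave 3789 called genes. The counts of the 2 glass libraries differed more from each other (chi-square per degree of freedom 7.32) than those on 1 kPa (3.05) or 20 kPa (2.89). With the replicate number as a block, 2862 genes were called; same-numbered gel libraries did not deviate together (correlation -0.0338 over 16093 genes), so the numbers were not taken as pairs. No gene called both here and in an alternative changed direction in any of the 14 alternatives. Of the 155 called genes named in the text 139 kept their call in every alternative that tested them, and 2 genes that were not called, Ccn2 and Nol8, were called in at least 1. The cause of these differences was not tested. Among lists, glycolysis (18 to 20 lower), hypoxia-inducible genes (21 to 22 lower), AP-1 and immediate early genes (16 to 21 lower), NF-kB genes (12 to 18 lower) and chondrocyte markers (12 to 14 higher) stayed within 1.5 times of the reported count under all alternatives. Among genes under 1 CPM 4.79% were called; the part of depth in this was not tested.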
